A study of Homo sapiens with 8 samples.

Results

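The genes described here are SEMA7A, the semaphorin genes SEMA3A, SEMA3B, SEMA3C, SEMA3F, SEMA4B, SEMA4C and SEMA6A, and PLXNC1, which encodes a receptor of SEMA7A. These 9 genes, of 58884 in the deposited tables, were selected on their measured values in these same libraries: their control levels across 4 lines and their treated over control ratios. All 9 were found by symbol, and their levels and ratios are given as a description, with no test. The data were RNA-seq of 4 human thyroid cancer cell lines, with 8 libraries and 1 library for each group. 8505C and CAL-62 come from anaplastic (undifferentiated) carcinoma, and each had a control siRNA library, labelled wild type, and an NR1D1 siRNA library, labelled as a knockdown. TPC-1 comes from papillary and FTC-133 from follicular carcinoma, and each had an empty vector library, labelled wild type, and an NR1D1 vector library, labelled as overexpression. NR1D1 encodes the transcriptional repressor REV-ERB alpha, which takes part in circadian timing. No difference below has a replicate check, and since no line received both the siRNA and the vector, effects of approach and of line cannot be told apart.

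Semaphorins are secreted and membrane-bound guidance proteins that share a sema domain and steer growing axons, migrating cells and vessels. Most signal through plexins, receptors whose cytoplasmic part acts on small GTPases. Secreted class 3 semaphorins usually bind a neuropilin that sits beside a plexin, while transmembrane semaphorins of classes 4 and 6 bind plexins directly. SEMA7A is held to the membrane by a GPI anchor, carries the John Milton Hagen blood group antigen, and acts through PLXNC1 and through integrins that contain the ITGB1 subunit. In cancers, SEMA3B and SEMA3F are known as candidate tumour suppressor genes.

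Sequence before the transcription start is shown for SEMA7A and SEMA3F, the listed genes past 2-fold in both siRNA lines, and for SEMA5A, the semaphorin past 2-fold in both vector lines, because REV-ERB alpha binds DNA. Sequences are from RefSeq on GRCh38.p14, 5′ to 3′ on the gene's strand, and capitals mark GGTCA, the core of the REV-ERB binding element. The SEMA7A sequence spans chr15:74433959-74434208 on the minus strand, that of SEMA3F chr3:50154808-50155044 on the plus strand, and that of SEMA5A chr5:9546076-9546325 on the minus strand.
SEMA7A: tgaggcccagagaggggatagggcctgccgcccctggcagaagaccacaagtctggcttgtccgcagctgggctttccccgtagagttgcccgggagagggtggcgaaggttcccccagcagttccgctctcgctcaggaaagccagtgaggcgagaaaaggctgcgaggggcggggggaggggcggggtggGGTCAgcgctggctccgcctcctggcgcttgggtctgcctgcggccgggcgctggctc
SEMA3F: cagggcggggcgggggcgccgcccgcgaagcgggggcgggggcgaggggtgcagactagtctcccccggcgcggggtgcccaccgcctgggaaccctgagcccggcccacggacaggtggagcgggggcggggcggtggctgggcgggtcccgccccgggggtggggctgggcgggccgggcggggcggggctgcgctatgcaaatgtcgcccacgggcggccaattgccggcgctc
SEMA5A: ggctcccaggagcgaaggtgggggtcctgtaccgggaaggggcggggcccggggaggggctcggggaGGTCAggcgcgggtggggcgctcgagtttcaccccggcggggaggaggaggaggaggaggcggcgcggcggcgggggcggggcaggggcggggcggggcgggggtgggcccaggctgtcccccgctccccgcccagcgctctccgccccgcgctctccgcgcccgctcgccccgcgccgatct

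SEMA7A held 1 match, 58 bases before the start, and SEMA5A held 1, which is also an AGGTCA motif. SEMA3F held none here, although another of its 3 RefSeq starts had both motifs in its window. Motifs were searched on both strands in the 250 bases before 35116 RefSeq starts, of which 48 belong to 27 of the 31 semaphorin, plexin and neuropilin genes. GGTCA was in 22 of these 48 windows (45.8%) beside 32.6% of all windows. AGGTCA, which contains GGTCA, was in 6 of 48 (12.5%) beside 12.1%. The longer ROR element was in 0 of 48 beside 0.265%, and the E-box CACGTG in 3 of 48 (6.25%) beside 6.34%. Starts of 1 gene share bases, so these windows are not independent.

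The libraries held 12855777 to 23184441 reads in genes, as recovered from the deposited values. Levels are in TPM (transcripts per 1000000, a level per length), and each pair of levels is given as the control and then the treated library. NR1D1 itself had 18.2 and 11.2 TPM in 8505C, a fold of 0.616 (95% counting interval 0.499 to 0.759), and 22.0 and 10.1 TPM in CAL-62, a fold of 0.462 (0.383 to 0.553). In TPC-1 it had 189.95 and 209 TPM, a fold of 1.10 (1.05 to 1.15), and in FTC-133 105 and 137 TPM, a fold of 1.3 (1.21 to 1.40). NR1D1 shares 263 exon bases with THRA on the opposite strand, and no source used here gives the strand setting of the counts. The mitochondrial genome took 57.22% and 67.85% of TPM in CAL-62 and 15.68% to 29.28% in the other 6 libraries. The NR1D1 fold in CAL-62 keeps these genes in the total and is closer to no change without them. In CAL-62 the median gene had a log2 ratio of -0.28, with 861 genes 2-fold higher and 1729 lower, against 1610 and 870 by a trimmed mean and 3080 and 1535 without the mitochondrial genes. Of the thyroid markers, TG and SLC5A5 were below 1 TPM in all 8 libraries, PAX8 was below 1 TPM in 8505C, and NKX2-1 had 0 reads in CAL-62 and TPC-1. Other thyroid markers were present. PAX8 had 53.7 and 90.3 TPM in CAL-62, 330 and 316 TPM in TPC-1, and 78.9 and 125 TPM in FTC-133. NKX2-1 had 63.4 and 100 TPM in 8505C and 14.2 and 22 TPM in FTC-133. FOXE1 had 13.2 and 23.1 TPM in TPC-1.

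SEMA7A lies at chr15:74409289-74433958 on the minus strand of GRCh38, with 3800 exon bases in GENCODE 29 and no exon shared with another gene. In 8505C it had 4.21 TPM with control siRNA and 54.1 TPM with NR1D1 siRNA, on 69 and 1057 reads. In CAL-62 it had 41.5 and 252 TPM, on 1133 and 5594 reads. Both treated libraries thus stood above their own control, by a fold of 12.9 in 8505C (10.1 to 16.7) and of 6.06 in CAL-62 (5.69 to 6.47). With the NR1D1 vector the pair was 48.3 and 52.1 TPM in TPC-1, a fold of 1.08 (0.991 to 1.17). The pair in FTC-133 was 33.2 and 32.0 TPM, a fold of 0.963 (0.852 to 1.09). The counting intervals of both vector lines include 1. All such intervals cover counting error only, and in bulk RNA fewer cells that express a gene and less of its RNA per cell cannot be told apart.

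Ratios were also taken as log2 of (TPM + 1) in the treated over (TPM + 1) in the control library, a scale that understates differences of low genes. SEMA7A had ratios of 3.40 in 8505C and 2.57 in CAL-62, and of 0.11 in TPC-1 and -0.05 in FTC-133. Among genes with a mean of at least 1 TPM in a line, it ranked 19 of 16499 from the highest in 8505C and 63 of 16230 in CAL-62. In TPC-1 and FTC-133 it ranked 6250 of 16175 and 9617 of 16501. The control library of 8505C was the low one. With the mitochondrial genes kept in the total, the controls of the other lines held SEMA7A at 33.2 to 48.3 TPM. Treated 8505C was just above that range on this scaling. Those genes took 57.22% of TPM in the CAL-62 control, so the place of treated 8505C depends on keeping them. Treated CAL-62 was above every other library.

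Some markers of other cell types were higher in the siRNA lines, as SEMA7A was. Some with a mean below 1 TPM were higher in a vector line, where SEMA7A was not. Summed over 13 such markers, the level was 73.7 and 231.4 TPM in 8505C, 1.4 and 13.0 TPM in CAL-62, and 1.1 to 2.8 TPM in the 4 vector libraries. In 8505C the endothelial cadherin gene CDH5 made up 63.5% and 60.4% of that sum, and the monocyte marker CD14 had 22.3 and 85.2 TPM. The other endothelial markers were higher there too, PECAM1 with 2.66 and 5.15 TPM, a fold of 1.93 (1.5 to 2.51), and VWF with 1 and 20 reads. Of 4 markers with a mean of at least 1 TPM in 8505C, 3 had a ratio above 0, beside 52.9% of all genes. In CAL-62 CD14 had 1.01 and 12.2 TPM and made up 94.1% of the treated sum. In the vector lines PECAM1 had 3 and 27 reads in TPC-1, and CD14 had 1 and 9 reads in FTC-133. Of the 13 markers, 0 had a mean of at least 1 TPM in TPC-1. In FTC-133 only 1 did, with a log2 ratio of -0.04. HBB and STMN2 had 0 reads in all 8 libraries, and the leukocyte marker PTPRC had at most 3 reads. The part of these markers in the SEMA7A result was not tested.

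**Figure D1:**
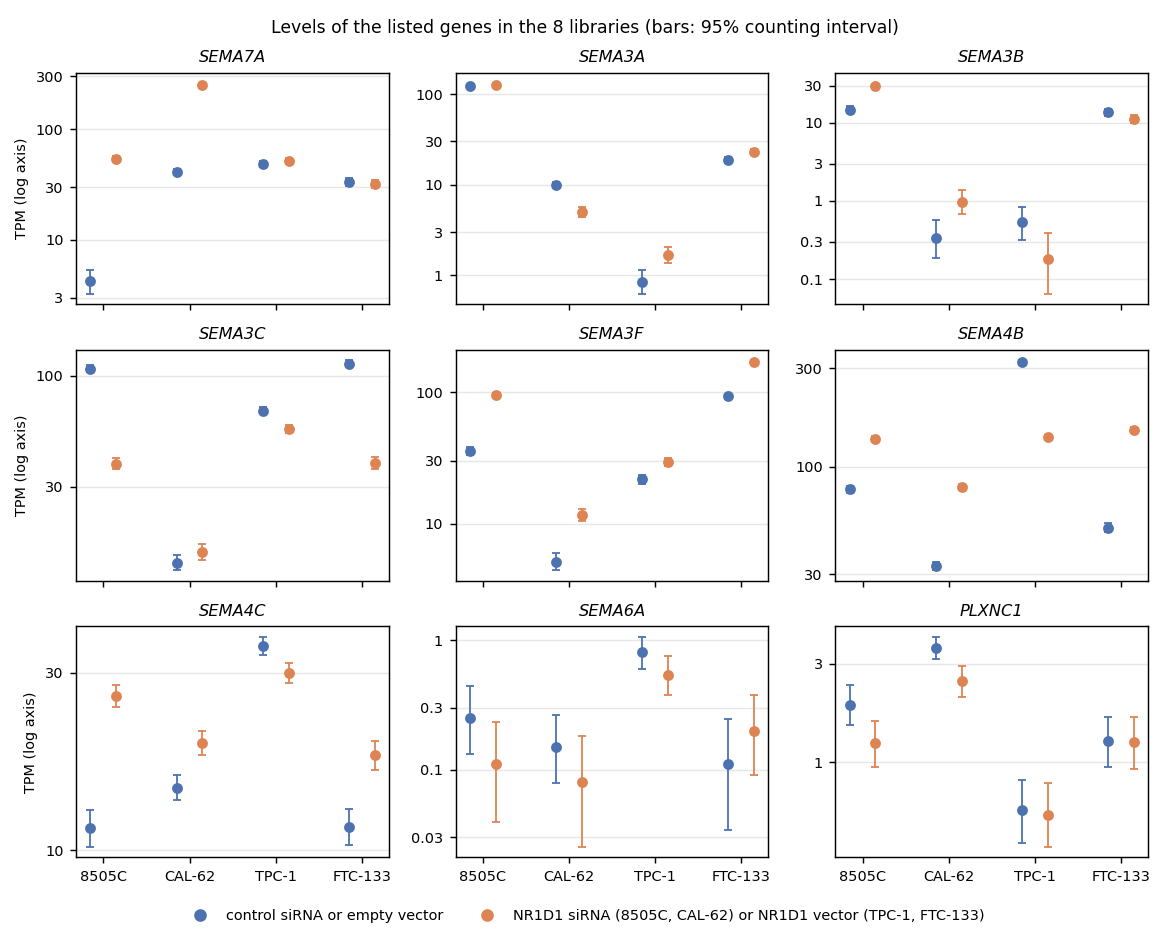
Levels of the 9 listed genes in TPM on log axes, 1 panel a gene, with control libraries in blue and treated libraries in orange for each line; bars are 95% counting intervals from recovered reads. SEMA7A has 4.21 and 54.1 TPM in 8505C and 41.5 and 252 TPM in CAL-62, while its points in TPC-1 and FTC-133 lie close together.

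PLXNC1, the plexin that binds SEMA7A, was low in all 8 libraries. It had 1.89 and 1.24 TPM in 8505C, a fold of 0.655 (0.462 to 0.919), and 3.58 and 2.47 TPM in CAL-62, a fold of 0.690 (0.559 to 0.852). Both ratios were below 1 in the lines where SEMA7A was higher, although the log2 ratio of -0.40 in CAL-62 became -0.16 by the trimmed mean and -0.11 without the mitochondrial genes. In TPC-1 PLXNC1 had 0.595 and 0.560 TPM and in FTC-133 1.27 and 1.26 TPM, with intervals of the fold that include 1. PLXNC1 shares 399 exon bases with 2 genes, so some of its few reads may be theirs.

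The integrin genes that serve SEMA7A were more abundant. ITGB1 had 1479.65 and 815 TPM in 8505C, 653 and 551 TPM in CAL-62, 709 and 749 TPM in TPC-1, and 837 and 289 TPM in FTC-133. It was above SEMA7A in each library, and its log2 ratio was past 2-fold in FTC-133 alone, at -1.53. ITGA1, which pairs with ITGB1, had 45.6 and 61.8 TPM in 8505C, 3.67 and 10.3 TPM in CAL-62, 1.67 and 2.39 TPM in TPC-1, and 7.34 and 3.47 TPM in FTC-133. The log2(TPM + 1) ratio of ITGA1 was 1.28 in CAL-62 and -0.90 in FTC-133, where its fold without the added 1 was 0.472 (0.407 to 0.547).

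Of the secreted class 3 ligands, SEMA3F was above its control in all 4 lines. It had 35.6 and 95.4 TPM in 8505C, a fold of 2.68 (2.46 to 2.91), and 5.13 and 11.7 TPM in CAL-62, a fold of 2.28 (1.89 to 2.75). In TPC-1 it had 21.8 and 29.2 TPM, a fold of 1.34 (1.21 to 1.49), and in FTC-133 92.8 and 169.53 TPM, a fold of 1.83 (1.73 to 1.93). The siRNA and the vector, opposite by label, thus gave SEMA3F ratios on the same side of 1. SEMA3F shares 110 exon bases with the antisense gene SEMA3F-AS1.

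SEMA3C, a ligand of NRP1 and NRP2, was at least 2-fold lower in 1 line of each approach. It had 107.74 and 38.5 TPM in 8505C, a fold of 0.357 (0.334 to 0.382), and 113.69 and 38.7 TPM in FTC-133, a fold of 0.340 (0.317 to 0.366). In CAL-62 it had 13.1 and 14.7 TPM, a fold of 1.12 (0.991 to 1.26), and in TPC-1 68.4 and 56.1 TPM, a fold of 0.821 (0.774 to 0.870). The ratio in CAL-62 depended on scaling, with a log2 ratio of 0.15 that became 0.46 by the trimmed mean and 0.56 without the mitochondrial genes.

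SEMA3A, a repellent that acts through NRP1, had 121 and 127 TPM in 8505C and 18.7 and 23.0 TPM in FTC-133. In CAL-62 it had 9.85 and 5.0 TPM, a fold of 0.508 (0.439 to 0.585), with a log2 ratio of -0.85 that became -0.58 by the trimmed mean and -0.54 without the mitochondrial genes. In TPC-1 it had 0.847 and 1.69 TPM, a fold of 2.00 (1.38 to 2.87) on 47 and 93 reads. SEMA3A was thus near or inside 2-fold in each line. SEMA3B, which lies close to SEMA3F on chromosome 3, had 14.7 and 29.8 TPM in 8505C, a fold of 2.02 (1.79 to 2.29) whose log2 ratio of 0.97 was just under 2-fold on the scale with the added 1. In FTC-133 it had 13.7 and 11.2 TPM, a fold of 0.821 (0.697 to 0.967). In CAL-62 it rested on 14 and 33 reads and in TPC-1 on 18 and 6, and its mean there was below 1 TPM.

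SEMA4B, a transmembrane semaphorin, had 77.6 and 136.44 TPM in 8505C, a fold of 1.76 (1.67 to 1.85), and 32.9 and 79.5 TPM in CAL-62, a fold of 2.41 (2.27 to 2.56). The vector lines went opposite ways. SEMA4B had 322 and 139 TPM in TPC-1, a fold of 0.431 (0.418 to 0.445), and 50.4 and 150.42 TPM in FTC-133, a fold of 2.98 (2.81 to 3.16). The treated vector libraries lay closer together than their controls.

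SEMA4C, a ligand of PLXNB2, had 11.5 and 26.0 TPM in 8505C, a fold of 2.27 (1.98 to 2.59), and 14.7 and 19.4 TPM in CAL-62, a fold of 1.32 (1.19 to 1.47). In TPC-1 it had 35.4 and 29.98 TPM, a fold of 0.846 (0.779 to 0.917), and in FTC-133 11.5 and 18.0 TPM, a fold of 1.56 (1.34 to 1.81). SEMA4C thus lay on the same side of its control as SEMA4B in every line. Its log2 ratio in 8505C was 1.11, and 0.91 with a pseudocount of 5. SEMA6A, a class 6 ligand of PLXNA2 and PLXNA4, was below 1 TPM in all 8 libraries, on 5 to 52 reads. Each of its 4 intervals for the fold included 1, so no difference was detectable at this depth.

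**Figure D2:**
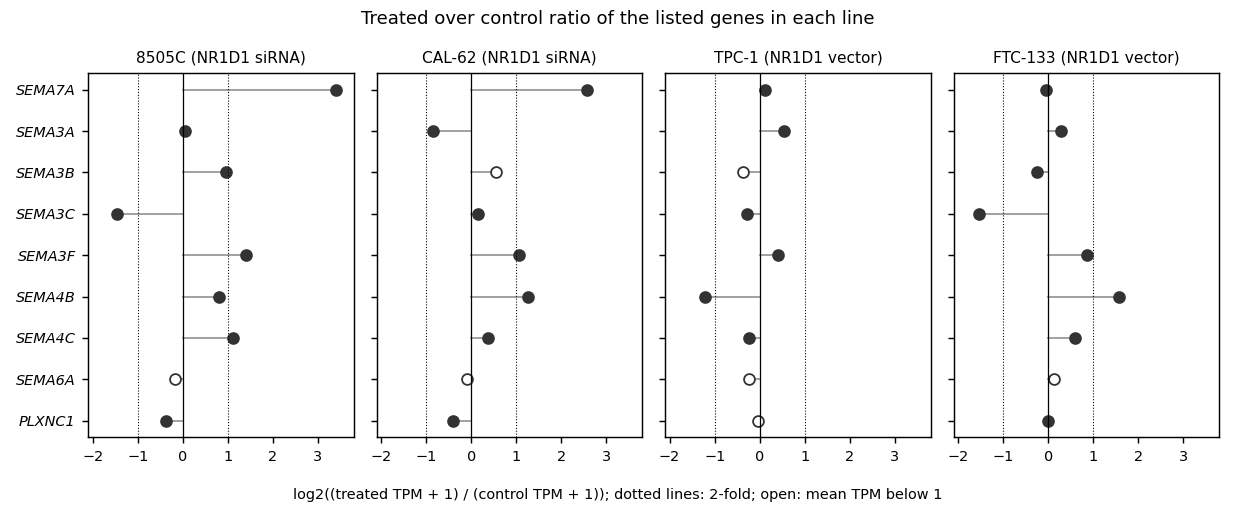
Treated over control ratio of each listed gene on the log2(TPM + 1) scale, 1 panel a line, with dotted lines at 2-fold; open points have a mean below 1 TPM. SEMA7A has 3.40 and 2.57 in the siRNA lines, and SEMA4B lies at -1.21 in TPC-1 and 1.56 in FTC-133.

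Counts past 2-fold are set beside the share of all genes past 2-fold in the same line and direction. Because these ratios chose the listed genes, nothing is read from their counts. In 8505C 8 of the 9 had a mean of at least 1 TPM, with 3 higher (11.9% of 16499 genes) and 1 lower (5.86%). In CAL-62 7 were measured, with 3 higher (5.3% of 16230 genes) and 0 lower (10.7%). In TPC-1 6 were measured, with 0 higher (6.28% of 16175 genes) and 1 lower (5.25%). In FTC-133 8 were measured, with 1 higher (9.76% of 16501 genes) and 1 lower (6.91%). SEMA7A and SEMA3F, 2 of 7 measured in both siRNA lines, were higher in both (1.78% of 13742 genes), and 0 were lower in both (1.87%). In both vector lines 0 of 6 were higher (0.95% of 13473 genes) and 0 lower (0.579%). With a pseudocount of 5, SEMA7A was the only listed gene higher in both siRNA lines.

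**Figure D3:**
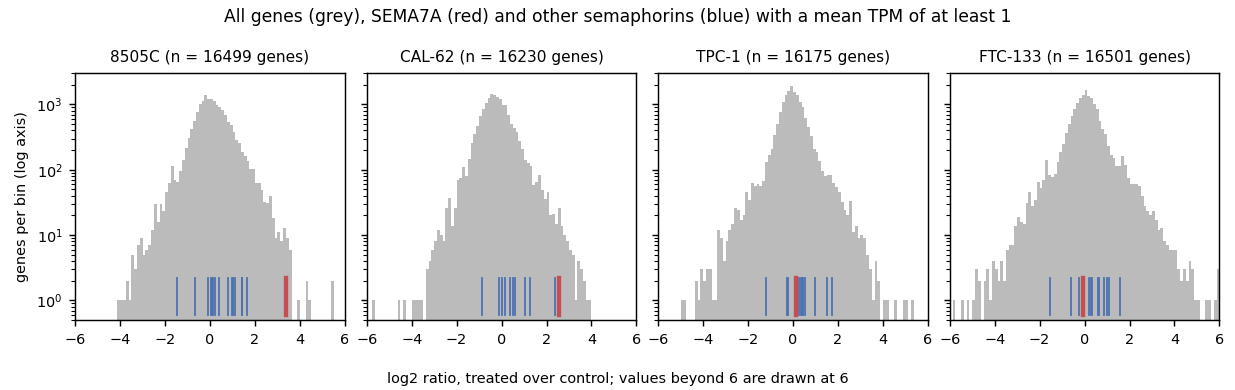
Histograms of the log2 ratio of all genes with a mean of at least 1 TPM (grey, log count axis) in each line, with ticks for SEMA7A (red) and the other semaphorins (blue). SEMA7A sits near the upper end in 8505C (rank 19) and CAL-62 (rank 63) and near the middle in TPC-1 and FTC-133.

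Control levels were also set across lines, although the tables were scaled separately, which adds an error of unknown size to each. The mitochondrial genome took 57.22% of TPM in the control of CAL-62, 29.28% in 8505C, 17.39% in TPC-1 and 17.35% in FTC-133. The orders and ratios below keep those genes in the total and can change without them. Counting intervals do not cover this. SEMA7A was highest in TPC-1 (48.3 TPM), then CAL-62 (41.5), FTC-133 (33.2) and 8505C (4.21), and no neighbours in that order had overlapping counting intervals. SEMA3A and SEMA3B were highest in 8505C, SEMA3C and SEMA3F in FTC-133, SEMA4B, SEMA4C and SEMA6A in TPC-1, and PLXNC1 in CAL-62. The highest control was 143 times the lowest for SEMA3A, 43.6 times for SEMA3B, 18.1 times for SEMA3F and 11.5 times for SEMA7A. It was 9.79 times for SEMA4B, 8.65 times for SEMA3C, 7.68 times for SEMA6A, 6.02 times for PLXNC1 and 3.09 times for SEMA4C. Counting intervals overlapped between 8505C and FTC-133 for SEMA3B, SEMA3C, SEMA4C and PLXNC1, between TPC-1 and CAL-62 for SEMA3B, and between CAL-62 and either 8505C or FTC-133 for SEMA6A. The controls of the anaplastic lines differed: that of 8505C had SEMA3A and SEMA3C above 100 TPM with SEMA7A low, and that of CAL-62 had SEMA7A as its most abundant semaphorin.

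Summed over all 20 semaphorin genes, the level was 539.8 and 755.2 TPM in 8505C, 145.4 and 435.7 TPM in CAL-62, 584.2 and 470.9 TPM in TPC-1, and 381.1 and 524.6 TPM in FTC-133. SEMA7A made up 0.779% and 7.16% of that sum in 8505C and 28.6% and 57.8% in CAL-62. In the vector lines its share was 8.27% and 11.1% in TPC-1 and 8.72% and 6.1% in FTC-133. SEMA4B took the largest share in TPC-1, at 55.2% and 29.5%.

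The rest of the family was read from the full list of 20 semaphorins, which contains the listed genes and is not independent of their choice. In 8505C 16 were measured and 13 had a ratio above 0, with a median log2 ratio of 0.59 beside 0.05 for all genes. Of these 16, 6 were 2-fold higher (11.9% of all genes) and 1 lower (5.86%). In CAL-62 11 were measured and 9 had a ratio above 0, with a median of 0.53 beside -0.28. Of these 11, 4 were 2-fold higher (5.3% of all genes) and 0 lower (10.7%). In TPC-1 10 of 13 were above 0 with a median of 0.40 beside -0.02, and in FTC-133 9 of 14 with a median of 0.30 beside 0.05. In TPC-1 2 were 2-fold higher (6.28% of all genes) and 1 lower (5.25%). FTC-133 also had 2 higher (9.76%) and 1 lower (6.91%). All genes had ratios above 0 in 52.9% of cases in 8505C, 32.6% in CAL-62, 46.8% in TPC-1 and 54.8% in FTC-133. The family median stayed above 0 in each line under the trimmed mean and without the mitochondrial genes.

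SEMA6B, a transmembrane semaphorin that was not among the listed genes, was the third past 2-fold in both siRNA lines on the log2(TPM + 1) scale. It had 17.3 and 47.7 TPM in 8505C, a fold of 2.76 (2.44 to 3.13), and 4.38 and 27.0 TPM in CAL-62, a fold of 6.17 (5.13 to 7.45). With the vector it had 59.9 and 119.38 TPM in TPC-1 and 2.69 and 3.63 TPM in FTC-133, log2 ratios of 0.98 and 0.32. In FTC-133 it rested on 51 and 66 reads, and the counting interval of the fold, 0.930 to 2.00, included 1. SEMA6C had folds of 2.46 (1.84 to 3.34) in 8505C and 2.41 (1.46 to 4.07) in CAL-62, with log2 ratios of 1.03 and 0.61 that became 1.09 and 1.19 without the mitochondrial genes. SEMA6C was then the fourth semaphorin past 2-fold in both siRNA lines. SEMA6D had 15.2 and 49.4 TPM in 8505C with 5 or fewer reads in each other library.

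SEMA5A, a semaphorin with thrombospondin repeats, was the only one of 12 measured in both vector lines that was past 2-fold in both. Of all 13473 genes, 0.95% were higher in both. SEMA5A was not among the listed genes. It had 1.04 and 4.88 TPM in TPC-1, a fold of 4.70 (3.63 to 6.10), and 20.4 and 44.3 TPM in FTC-133, a fold of 2.17 (2.02 to 2.34). In 8505C it had 12.8 and 14.9 TPM, and in CAL-62 0 reads in both libraries, which allows up to 0.0345 and 0.0424 TPM at 3 reads. SEMA5A shares 436 exon bases with an antisense gene. SEMA4G had 1.56 and 7.45 TPM in TPC-1 but shares 1170 exon bases with MRPL43 on the opposite strand. SEMA3E, which binds PLXND1 without a neuropilin, had 100.45 and 107.33 TPM in 8505C and 2.73 TPM or less in the 6 other libraries. SEMA4D and SEMA4F were not past 2-fold in any line on the log2(TPM + 1) scale. SEMA4A reached at most 1.76 TPM, SEMA3D 2.67, SEMA3G 1.63 and SEMA5B 0.297.

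Receptor genes of the family were read from a list of 11 plexins and neuropilins, which contains PLXNC1. In 8505C 8 of 10 measured were above 0 (52.9% of all genes) and 4 were 2-fold higher (11.9%), with a median of 0.70 beside 0.05 for all genes. In CAL-62 8 of 10 were above 0 (32.6% of all genes) and 2 were 2-fold higher (5.3%), with a median of 0.63 beside -0.28. Without the mitochondrial genes 6 were 2-fold higher there, beside 3080 of 20565 genes. In TPC-1 6 of 10 were above 0 (46.8% of all genes) and 0 were 2-fold higher (6.28%), with a median of 0.27 beside -0.02. In FTC-133 7 of 10 were above 0 (54.8%) and 0 were 2-fold higher (9.76%), with a median of 0.30 beside 0.05. NRP2, a coreceptor of SEMA3F, was the 1 receptor of 10 past 2-fold in both siRNA lines (1.78% of 13742 genes were higher in both). By the trimmed mean PLXND1 was past it too, and without the mitochondrial genes PLXND1, PLXNB2 and PLXNB3 were. It had 0.750 and 2.71 TPM in 8505C, a fold of 3.62 (2.60 to 5.12), and 13.9 and 35.5 TPM in CAL-62, a fold of 2.54 (2.39 to 2.71). In TPC-1 NRP2 had 77.9 and 99.1 TPM and in FTC-133 162.62 and 182.33 TPM.

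NRP1, the coreceptor of SEMA3A, had 36.6 and 32.9 TPM in 8505C, 24.6 and 56.3 TPM in CAL-62, 29.8 and 44.0 TPM in TPC-1, and 77.1 and 48.2 TPM in FTC-133. It was past 2-fold in CAL-62 alone. PLXNB2, the receptor of SEMA4C, was the most abundant plexin in every library, with 88.1 and 189 TPM in 8505C, 75.7 and 119 TPM in CAL-62, 179 and 213 TPM in TPC-1, and 112 and 179 TPM in FTC-133. PLXND1 had 26.0 and 71.6 TPM in 8505C and 9.01 and 17.0 TPM in CAL-62, log2 ratios of 1.43 and 0.85. PLXNB3 had a log2 ratio of 1.24 in 8505C but shares 1432 exon bases with SRPK3. PLXNA2 was the 1 receptor of 10 past 2-fold lower in TPC-1 (5.25% of all genes), with 8.83 and 3.17 TPM. PLXNA1, PLXNA3 and PLXNB1 had log2 ratios from -0.28 to 0.86, where the lowest, PLXNA3 in CAL-62, became 0.02 by the trimmed mean and 0.11 without the mitochondrial genes. PLXNA4 had 12.03 and 14.96 TPM in TPC-1 and at most 0.209 TPM in the siRNA lines. In FTC-133 it had 1.51 and 0.0594 TPM on 107 and 4 reads, a fold of 0.0393 (0.0105 to 0.104). Its mean there was below 1 TPM, so it was not counted.

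**Figure D4:**
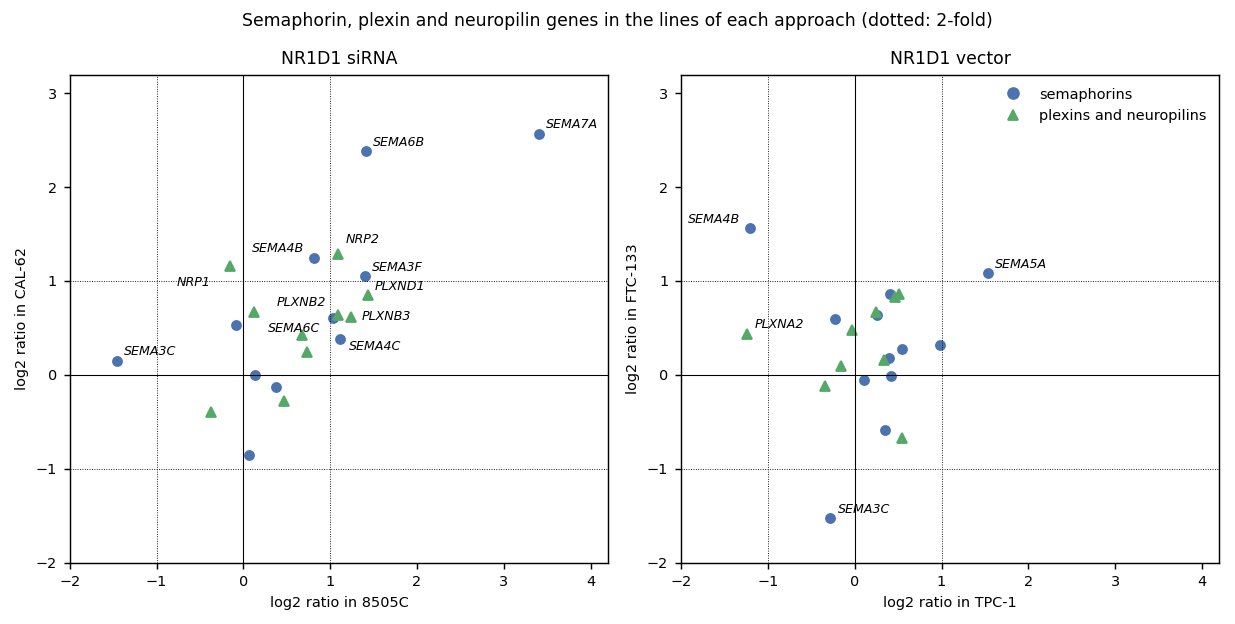
Log2 ratios of semaphorin genes (circles) and of plexin and neuropilin genes (triangles) in 8505C against CAL-62 with NR1D1 siRNA (left) and in TPC-1 against FTC-133 with the NR1D1 vector (right), for genes with a mean of at least 1 TPM in both lines. SEMA7A, SEMA6B, SEMA3F and NRP2 are past both dotted 2-fold lines on the left, and SEMA5A on the right.

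Genes that act downstream of plexins were read from a list of 32. In 8505C 22 of 31 measured were above 0 (52.9% of all genes), with a median of 0.32 beside 0.05 for all genes. In CAL-62 5 of 29 were above 0 (32.6%), with a median of -0.29 beside -0.28. The CAL-62 median of this list changed sign with scaling, to 0.02 by the trimmed mean and 0.12 without the mitochondrial genes, where all genes had 0.01 and 0.11. In TPC-1 16 of 29 were above 0 (46.8% of all genes), with a median of 0.05 beside -0.02. In FTC-133 15 of 29 were above 0 (54.8%), with a median of 0.11 beside 0.05. Of the 29 measured in both lines of an approach, 0 were past 2-fold in the same direction in both. Of all genes, 1.78% were higher and 1.87% lower in both siRNA lines, and 0.95% and 0.579% in both vector lines. Nothing is read from a count of 0 beside such shares. CRMP1 was 2-fold higher in both siRNA lines by the trimmed mean and without the mitochondrial genes, as were 380 and 676 of all genes. Among 7 genes for proteases that cut semaphorins, 5 were measured in both siRNA lines. Of these, MMP14 was the only one past 2-fold in both (1.78% of 13742 genes were higher in both). It had 26.0 and 64.0 TPM in 8505C and 117 and 315 TPM in CAL-62.

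Ephrins, netrins, slits and their receptors, other guidance genes in a list of 40, are given for comparison. In 8505C 24 of 26 measured were above 0 and 12 were 2-fold higher, with a median of 0.81, where all genes had 52.9% above 0 and 11.9% 2-fold higher. In CAL-62 12 of 17 were above 0 and 2 were 2-fold higher (5.3% of all genes), with a median of 0.34. That count depended on scaling, with 7 of 19 by the trimmed mean and 12 of 23 without the mitochondrial genes. All genes had 1610 of 16730 and 3080 of 20565 on these scalings. So did the count higher in both siRNA lines, which was 0 of 14, then 1 of 16 (EPHB3) and 4 of 18 (EFNA1, EFNA3, EFNB1 and EPHB3). For semaphorins the same 3 scalings gave 3 of 11, 3 of 11 and 4 of 12. The number of all genes higher in both siRNA lines rose with them as well, from 245 (1.78% of 13742) to 380 and 676. Of 20 measured in both vector lines, EPHA5, an ephrin receptor, was the only one past 2-fold in both (0.95% of 13473 genes were higher in both). It had 0.312 and 1.75 TPM in TPC-1 and 0.376 and 3.01 TPM in FTC-133. Of 6 epithelial markers, 3 were measured in both vector lines. Of these, KRT8 was 2-fold higher in both (0.95% of 13473 genes), with 57.66 and 150.91 TPM in TPC-1 and 13.96 and 89.32 TPM in FTC-133. KRT7 had log2 ratios of -0.75 in TPC-1 and 2.21 in FTC-133, and KRT18 had 0.66 and 0.72. KRT19 was 2-fold higher in FTC-133 too, at 2.41, while EPCAM had -0.33 there on 16 and 10 reads. Of 5 epithelial markers measured in FTC-133, 3 were 2-fold higher (9.76% of all genes). In CAL-62 2 of the 6 were 2-fold lower (10.7% of all genes), KRT7 at -1.64 and KRT18 at -1.01, which by the trimmed mean became -1.31 and -0.68. KRT8 was also lower there, at -0.86, which became -0.54. EPCAM and CDH1 went the other way in CAL-62, at 0.74 and 0.68, which became 1.06 and 0.98. By the trimmed mean 3 of the 6 were above 0 in CAL-62 (51% of all genes).

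The genes whose 4 log2 ratios lay nearest to those of SEMA7A were TMEM87B, SIRPG, LAMP3, SNORA12 and CEACAM1, at Euclidean distances of 0.75, 1.15, 1.17, 1.22 and 1.27, among 10569 genes with a mean of at least 5 TPM over the 8 libraries. TMEM87B had 6.79 and 59.6 TPM in 8505C, 13.4 and 83.6 TPM in CAL-62, 30.2 and 31.5 TPM in TPC-1, and 20.4 and 12.6 TPM in FTC-133. It was the only one of the 5 at 10 TPM or more in the vector lines. SIRPG, LAMP3 and CEACAM1 were below 2 TPM in TPC-1 and FTC-133. SNORA12 rested on 34 reads or fewer in each library.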

How the data were processed

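The deposited tables gave 1 value for each of 58884 Ensembl genes in 8 libraries, 58472 of them with a symbol and 58611 in GENCODE 29. The authors deposited TPM for 8505C and CAL-62, with columns that sum to 1000000. The tables of TPC-1 and FTC-133 are also named TPM by the authors but sum to 253330.3 to 261469.4. They were read as deposited FPKM, since value times exon length came to 1.0014 to 1.0048 times the sum that FPKM gives. Per the submitters' processing notes, FastQC, MultiQC, Trimmomatic 0.38, featureCounts 2.0.0 and the build GRCh38 were used. Which aligner and strand setting applied is not given in the sources used here.

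All columns were rescaled to 1000000. Reads were recovered from value times exon length: of values of 1 to 10 reads, 92.7% to 93.7% were whole within 0.02 of a read, and of all values 65.8% to 71.1%. They were rounded and used only for 95% intervals, exact Poisson for levels and Clopper-Pearson for folds. Calls used a pseudocount of 1, a mean of at least 1 TPM in the line and 2-fold. No test was made, because each group had 1 library and these ratios chose the genes. Named genes were the 9 listed, other semaphorins, plexins and neuropilins with a mean of at least 1 TPM in some line, ITGA1, ITGB1, NR1D1, genes of other lists past 2-fold in both lines of an approach, and the 5 genes nearest to SEMA7A. SEMA3G, SEMA5B, genes past 2-fold under another scaling alone and the other markers were named after their values were seen. Members and lists were chosen with earlier results of these data known. The steps were tested on simulated data that held counting error and planted changes only. Those data had no spread between replicates and no mitochondrial shift as in CAL-62, so they do not check either. Python 3.11.15, scipy 1.17.1 and pandas 2.3.3 were used.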

Additional observations from a re-analysis of the deposited data

Results flagged for a closer look

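SEMA4B was past 2-fold in opposite directions in the lines given the NR1D1 vector, with a log2 ratio of -1.21 in TPC-1 and 1.56 in FTC-133. Its level went from 322 to 139 TPM in TPC-1 and from 50.4 to 150.42 TPM in FTC-133. The difference between the lines was not tested, since each had 1 library per group.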

How the results depend on the processing

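The results were recomputed with pseudocounts of 0.1 and 5, a trimmed mean scaling, columns rescaled without genes of the mitochondrial genome, a mean of at least 5 TPM, no filter and a limit of 1.5-fold. SEMA7A had a log2 ratio of 2.68 in 8505C and 2.46 in CAL-62 with a pseudocount of 5, and in CAL-62 of 2.90 by the trimmed mean and 3.0 without the mitochondrial genes. Its other 12 recomputed ratios moved by less than the counting error. Past 1.5-fold, 5 listed genes were higher in 8505C, 1 was lower in CAL-62 (SEMA3A) and 3 were higher in FTC-133. With a pseudocount of 5, only 1 listed gene, SEMA7A, was 2-fold higher in both siRNA lines. The other 80 recomputed counts were within 1.5 times their reported value. Of 128 ratios of the other listed genes, 14 moved by more than the counting error, and no ratio past 2-fold changed sign. The labels carry no replicate numbers. A fit with line as a block over the lines of an approach was not made, because these ratios chose the genes. No library could be left out, since each group had 1. Depth limits SEMA6A in all lines, PLXNC1 in TPC-1, and SEMA3B in CAL-62 and TPC-1.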
